A study of Mus musculus with 80 samples.

Results

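The genes described here are 10 basic helix-loop-helix (bHLH) transcription factors that act beside the myogenic factors: *Tcf21*, *Msc*, *Twist1*, *Twist2*, *Tcf15*, *Hand2*, *Bhlhe40*, *Bhlhe41*, *Tcf12* and *Tcf3*. They were looked up by symbol among the 25899 genes of the expression table, and the rule itself uses no measured value. All 10 were found. Muscle stem cells (MuSCs) of extraocular muscle (EOM) and of *Tibialis anterior* (TA, a limb muscle) were sorted from 10 male donor mice that carry Tg:Pax7-nGFP on a C57BL/6;DBA2 F1/JRj background, in which nuclear GFP is driven by *Pax7*. The donors were 7.6 weeks old in Experiment 1 (4 mice) and 7 weeks old in Experiment 2 (6 mice). RNA of 500 cells was sequenced before grafting. Cells of each muscle were also injected into a TA of immunodeficient Rag2-/-;γC-/- recipients, which had been injured with cardiotoxin, and GFP-positive cells were sorted again on day 21 according to the labels, while the text of the study also gives a longer interval. EOM and TA cells of a donor went into separate TAs of the same recipient. Live cells were gated on GFP, size and granularity, and in bulk values host cells taken along with the few grafted cells cannot be told apart from them.

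Of 40 RNA libraries, 30 passed the quality table of the study and are compared: 8 EOM and 8 TA pre-graft libraries, 7 EOM grafts and 7 TA grafts. By the labels the sorted grafts held a median of 35 cells (EOM) and 26 cells (TA), which for some libraries differs from the quality table of the study, and 1 library in each graft group came from Experiment 1. Values are log2 RPM (reads scaled to a common library size), as the authors computed them. From 963432 to 4169357 reads on genes were recovered per library. A gene without a read stands at 0.9 of a read, and 3 reads in 1 library correspond to 1.05 to 4.64 RPM, which is taken as the limit for a count of 0. All 8 MuSC markers, among them *Pax7*, *Myf5* and *Calcr*, had reads in every group, but their summed level had a median of 15930 RPM in EOM pre-graft, 16681 RPM in TA pre-graft, 4171 RPM in EOM grafts and 3139 RPM in TA grafts. Reads on mitochondrial genes took a median of 3.77% in EOM pre-graft, 13.6% in TA pre-graft, 43.7% in EOM grafts and 38.3% in TA grafts. Where 3 levels are given for a group they are its lowest, median and highest library. Unless another tool is named, tests across genes were two-sided tests of limma over all genes that passed a filter, and calls needed both an adjusted p below 0.05 and a log2 difference of more than 1 in size.

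bHLH factors bind DNA as dimers at E-boxes, short sites with the letters CANNTG. The myogenic factors Myf5, MyoD, myogenin and Mrf4 pair with E proteins to activate muscle genes, and other bHLH proteins take part in or block these pairs. Tcf12 and Tcf3 are such E proteins, Twist proteins and Msc can repress E-box targets of MyoD, Tcf21 and Msc are needed together for the jaw muscles, Tcf15 patterns the somite, Hand2 acts in heart and limb, and Bhlhe40 and Bhlhe41 are repressors tied to the circadian clock.

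The order of the levels per kb of exon was set first (RPM divided by exon length, per library). In EOM pre-graft, *Msc* led with a median of 132 RPM per kb, and its lowest library (94.8) lay above the highest library of the next gene, *Bhlhe40* (37.9). *Bhlhe40* (23.1), *Tcf3* (13.3), *Tcf12* (5.33), *Bhlhe41* (4.79), *Tcf15* (3.82), *Tcf21* (2.65) and *Twist1* (0.463) followed by their medians. In that order, neighbours overlapped in their libraries except *Msc* with *Bhlhe40* and *Tcf3* with *Tcf12*. The exon length merges all annotated exons of a gene, 15529 bases for *Tcf12* and 4039 for *Tcf3*. In RPM the order of these 2 was the reverse, with medians of 82.8 for *Tcf12* and 53.8 for *Tcf3*, so their separation follows the divisor. In TA pre-graft, *Msc* again stood apart, with a median of 197 RPM per kb and a lowest library of 111, against 42.0 in the highest library of *Bhlhe40*. After grafting the order changed. *Tcf15* had the highest median in EOM grafts (92.1 RPM per kb) and in TA grafts (124), and *Msc* came next in EOM grafts (11.5) but fell behind *Bhlhe40*, *Tcf12* and *Tcf3* in TA grafts (3.35). All neighbours overlapped in both graft groups.

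**Figure D1:**
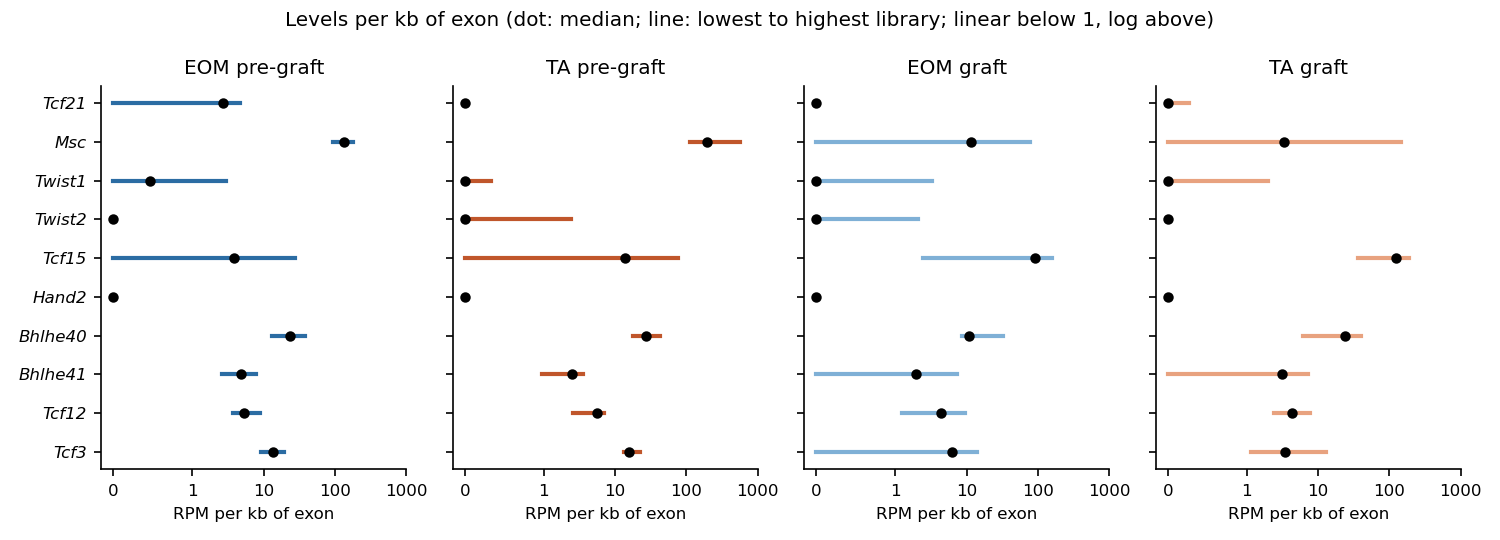
Levels of the 10 members in RPM per kb of exon (x axis, linear below 1 and logarithmic above) for the 4 groups. Dots are medians and lines run from the lowest to the highest library. *Msc* leads in both pre-graft groups (132 and 197) and *Tcf15* in both graft groups (92.1 and 124).

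The first comparison asks which of these factors differ between head and limb MuSCs before transplantation. Of the 10 members, 7 passed the filter (log2 RPM above 1 in at least 4 of the libraries compared), 1 was called lower in TA and 0 were called higher, where limma called 3.31% of all genes lower and 1.26% higher. The gene called was *Tcf21*. It passed the filter through EOM alone, so its share of the members says little. The median of all genes was itself shifted by -0.30 (log2, TA minus EOM), and of all calls 27.5% were higher in TA, against 44.7% with mitochondrial genes left out of the scaling and 56.4% with edgeR.

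*Tcf21* was read in EOM MuSCs and not in TA MuSCs. The 8 EOM pre-graft libraries held 0 reads at the lowest, a median of 16 and 27 at the highest, that is 0, 6.23 and 10.8 RPM, and 7 of the 8 held at least 1. The 8 TA pre-graft libraries held 0 reads each. The groups met only at 0, through the EOM library of mouse 4 of Experiment 1. Pooled over its libraries, EOM lay at 27.9 times the level of 3 reads over the whole TA group. This ratio leaves out the spread between libraries, so it is not a lower bound. On the log2 scale, which sets the zeros at 0.9 of a read, TA lay at -2.69 against EOM (SE 0.67, 95% interval -4.09 to -1.29, limma adjusted p = 0.0148). Since *Tcf21* passed the filter through EOM alone, the fits of this paragraph describe that difference and are no support for it. Of 7 donors with both libraries, EOM was higher in 6 and both were at 0 in the other. A fit with donors as replicate block gave -2.42 and no call (adjusted p = 0.0534). With the failed pre-graft libraries included, 2 of each muscle, it was -2.59 and not called (adjusted p = 0.389). There the failed EOM library of mouse 1 of Experiment 1 held 302 reads on genes. Its zero stood at 10.7 log2 RPM, so that fit says little about *Tcf21*. Within Experiment 2 the difference was -3.26 (limma adjusted p = 0.0278).

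*Tcf21* is also known as a gene of fibroblasts, so markers of fibro-adipogenic cells are given beside it. All 8 of them had reads in both pre-graft groups, and their summed level ran from 1992 to 4027 RPM in EOM and from 1954 to 3626 RPM in TA. Of 7 tested, 2 were called lower in TA and 0 higher, *Dcn*, which encodes decorin (-5.62, limma adjusted p = 0.00592), and *Osr1* (-2.90, adjusted p = 0.00658), both named after their values were seen. The 2 EOM libraries with most *Tcf21* (10.8 and 10.1 RPM) had 26.4 and 22.5 RPM of *Dcn*, the 2 lowest values of their group, where *Dcn* reached 559 RPM. The TA library with 1013 RPM of *Dcn* had no read of *Tcf21*. Of 5 glial markers tested, 2 were called lower in TA and 0 higher, and their sum ran from 20.8 to 3933 RPM in EOM and from 3.10 to 393 RPM in TA, with overlap. The part of other cells in the difference was not tested.

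The gene lies on the minus strand of chr10:22817279-22820128 (GRCm38). The 250 bases before its start, in RefSeq (GRCm38.p6, chr10:22820144-22820393, minus strand), are shown because *Tcf21* was the member called between the muscles, and they hold no CANNTG. Of 32851 such stretches of RefSeq genes, 66.2% hold at least 1, read on either strand, since the letters read the same on both. The stretch is therefore all in lower case.
Tcf21: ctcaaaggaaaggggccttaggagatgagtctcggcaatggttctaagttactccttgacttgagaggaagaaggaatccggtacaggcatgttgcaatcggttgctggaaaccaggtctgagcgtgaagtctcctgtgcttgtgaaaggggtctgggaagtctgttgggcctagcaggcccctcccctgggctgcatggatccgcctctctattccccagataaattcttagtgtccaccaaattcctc

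*Msc* encodes musculin (MyoR), a repressor at E-boxes. It was the most abundant member before grafting, with 404, 760 and 1211 reads (lowest, median and highest library) in EOM and 604, 832 and 2814 in TA. These are 241, 336 and 457 RPM in EOM and 283, 502 and 1418 RPM in TA, and the groups overlapped. TA lay at 0.76 above EOM (SE 0.25, 95% interval 0.24 to 1.28), which missed the threshold (limma adjusted p = 0.0654), and TA was higher in 6 of 7 donors. Relative to the shift of all genes the difference was 1.06. *Msc* was called higher in TA with centring (1.00, adjusted p = 0.0171), edgeR (1.14, 0.00829) and DESeq2 (1.15, 9.68e-05). With mitochondrial genes left out of the scaling it lay at 0.98 (0.0125), just short of the limit on size.

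*Msc* overlaps an antisense gene, *Gm9947* (chr1:14752937-14776931, plus strand; *Msc* lies at chr1:14753346-14755966, minus strand), and 49.6 to 50.5% of reads per library lay on the sense strand by the deposited quality table, so reads of the 2 genes cannot be told apart. *Gm9947* had a median of 130 reads in EOM pre-graft, 168 in TA pre-graft, 15 in EOM grafts and 6 in TA grafts. It was the gene whose pattern was most like that of *Msc* over the 16 pre-graft libraries (Pearson's r = 0.969 on log2 RPM), and *Rad18* was also among the 3 most alike (0.836). For *Tcf21* the most alike were *Garnl3* (0.860), *Gm15834* (0.860) and *Olfr1508* (0.857). These r are descriptions over libraries that share the split between muscles.

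The Twist genes, which repress myogenic bHLH factors, were close to the limit of detection. *Twist1* had reads in 6 of 8 EOM pre-graft libraries (0, 2 and 9 reads at the lowest, median and highest) and in 1 of 8 TA pre-graft libraries (1 read). Its mean was 1.71 RPM in EOM and 0.0677 RPM in TA, and an exact two-sided permutation test over the libraries gave p = 0.0126, unadjusted, among 9 such tests on members outside the filter. The groups overlapped at 0 and 1 reads. *Twist2* had reads in 2 of 8 TA libraries (up to 19) and 0 in all 8 EOM libraries. With reads in so few libraries, 0.467 is the smallest p that the exact permutation test can give, so it decides nothing here. After grafting, *Twist1* was read in 1 of 7 libraries of each muscle and *Twist2* in 1 EOM graft (14 reads) and 0 TA grafts. For both genes most graft libraries stood at 0, so no change could be read at this depth.

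*Tcf15* (paraxis) was low and uneven before grafting. EOM pre-graft libraries held 0, 8 and 41 reads (0, 3.74 and 26.6 RPM) and TA pre-graft libraries 0, 14.5 and 185 reads (0, 13.6 and 75.1 RPM), and the groups overlapped. The difference of 1.66 (SE 1.11, 95% interval -0.65 to 3.97) did not pass (limma adjusted p = 0.368). Its level went with that of endothelial markers. The 3 TA pre-graft libraries with 61.3 to 75.1 RPM of *Tcf15* were the 3 with the highest sum of 6 endothelial markers (727 to 1263 RPM), and the other TA libraries reached 18.6 RPM of *Tcf15* and 314 RPM of the markers. Of these markers 1 was called higher in TA (*Cdh5*, which encodes VE-cadherin, 4.09, limma adjusted p = 0.0364) and 1 lower (*Tek*, -1.45, 0.00322).

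*Hand2* had 0 reads in all 30 libraries, which allows at most 0.0541 RPM over all of them together.

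The DEC repressors *Bhlhe40* and *Bhlhe41* were read in every pre-graft library. *Bhlhe40* had 61.5, 109 and 178 RPM in EOM and 84.4, 125 and 197 RPM in TA, and the difference of 0.30 (95% interval -0.21 to 0.80) did not pass (limma adjusted p = 0.466). *Bhlhe41* had 17.2, 32.2 and 51.9 RPM in EOM and 6.57, 16.9 and 23.99 RPM in TA. The groups overlapped, EOM was higher in 6 of 7 donors, and the difference of -0.99 (SE 0.35, 95% interval -1.70 to -0.27) missed the threshold (adjusted p = 0.0812). Relative to the shift of all genes the difference in *Bhlhe41* was -0.69. It was farther from a call with mitochondrial genes left out of the scaling (-0.77, limma adjusted p = 0.206), edgeR (-0.77, 0.197) and DESeq2 (-0.76, 0.156). Of 14 clock genes, all of which were tested, 1 was called lower in TA and 0 higher, and their median difference was -0.04 against -0.30 over all genes. That gene was *Nr1d1*, which encodes the clock repressor Rev-erbα (-1.28, adjusted p = 0.00112).

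The bases before the start of *Bhlhe41* (GRCm38.p6, chr6:145865421-145865670, minus strand) are shown because DEC proteins bind CACGTG, and they hold 3 matches to CANNTG, in capitals, of which 1 is CACGTG, which is itself a CANNTG. Of the 32851 RefSeq stretches, 6.02% hold CACGTG. A match is a description of the letters and was not tested as a site.
Bhlhe41: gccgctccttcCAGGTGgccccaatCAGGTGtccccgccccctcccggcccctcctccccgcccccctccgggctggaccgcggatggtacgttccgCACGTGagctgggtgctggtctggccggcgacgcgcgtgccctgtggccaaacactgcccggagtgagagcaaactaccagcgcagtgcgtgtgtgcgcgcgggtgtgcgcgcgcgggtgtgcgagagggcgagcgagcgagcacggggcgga

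The E proteins were read in every pre-graft library, and neither was called. *Tcf12* had 56.7, 82.8 and 136 RPM in EOM and 39.4, 86.7 and 110 RPM in TA, with a difference of -0.10 (95% interval -0.57 to 0.37, limma adjusted p = 0.818). *Tcf3* had 37.1, 53.8 and 77.9 RPM in EOM and 53.6, 63.0 and 89.8 RPM in TA, with a difference of 0.32 (95% interval -0.09 to 0.72, adjusted p = 0.325). With mitochondrial genes left out of the scaling *Tcf12* turned to 0.12 (0.806) and *Tcf3* lay at 0.54 (0.0987), and DESeq2 gave 0.56 for *Tcf3* (0.053). Of the Id proteins, which sequester E proteins, and the E protein gene *Tcf4*, all 5 were tested and 0 were called in either direction, with a median difference of 0.68. *Id3*, the nearest to a call, lay at 0.67 (adjusted p = 0.0240), below the limit of 1 in size.

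**Figure D2:**
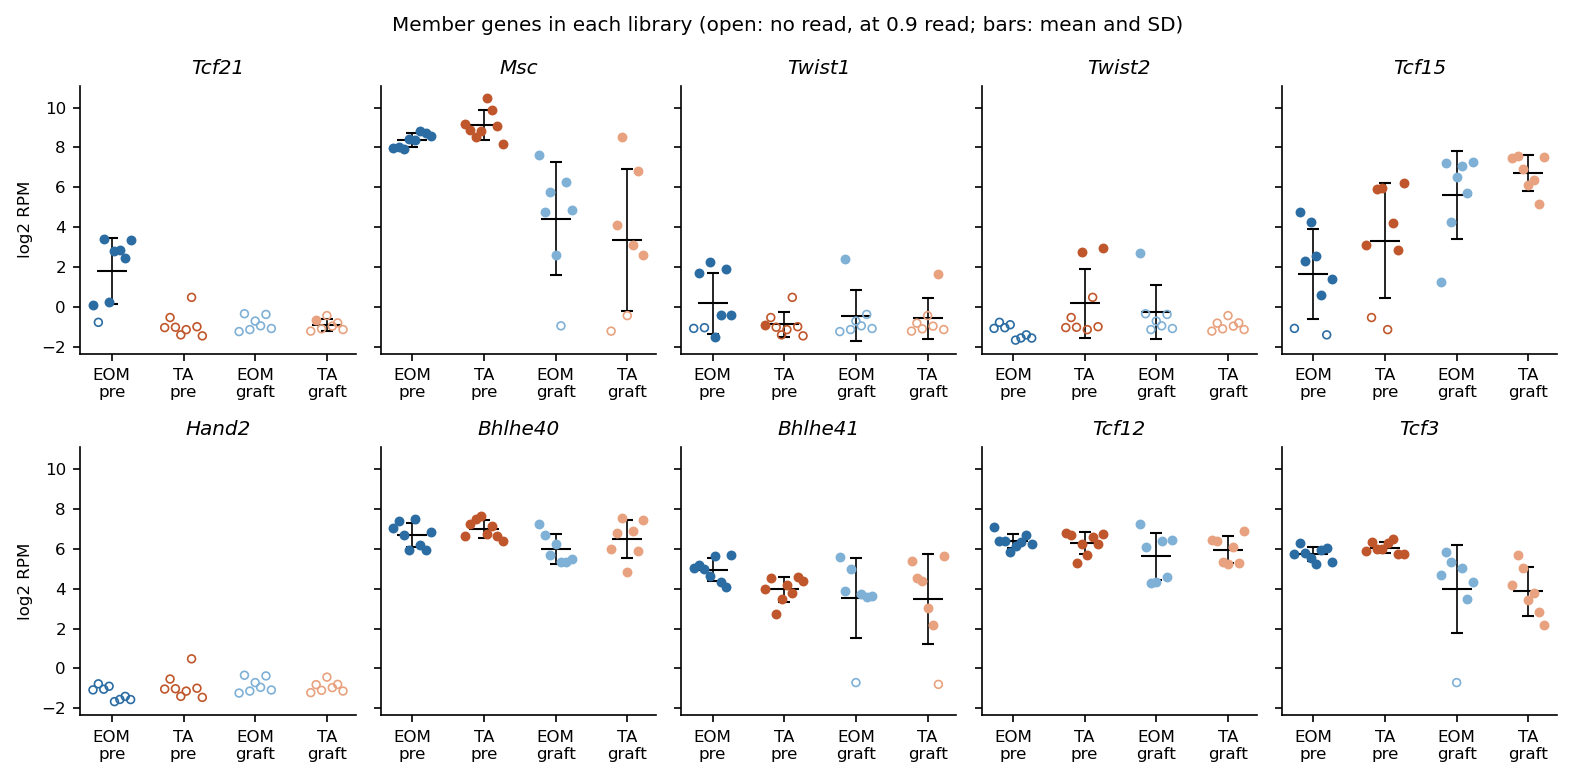
log2 RPM (y axis) of the 10 members in each of the 30 libraries, by group (x axis). Each point is a library, open points hold no read and stand at 0.9 of a read, and bars give mean and SD for groups with any read. *Tcf21* holds reads in 7 of 8 EOM pre-graft libraries and in 1 other library, *Msc* drops and *Tcf15* climbs in both graft groups.

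The next question is what grafting did to these factors in TA cells returned to TA. Of the members, 6 were tested, of which 1 was called higher (*Tcf15*) and 2 lower (*Msc*, *Tcf3*), where limma called 3.79% of all genes higher and 30.9% lower. The median gene lay at -1.09, so each change is also given relative to it. Of all calls 10.9% were higher, against 49.1% with mitochondrial genes left out of the scaling, 57.5% with centring, 66.1% with edgeR and 67.9% with DESeq2.

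*Msc* fell in TA grafts. They held 0, 15 and 721 reads (0, 8.54 and 374 RPM), 2 of the 7 held none, and the range met that of TA pre-graft (283 to 1418 RPM) through 1 graft. The change was -5.76 (SE 0.95, 95% interval -7.72 to -3.81, limma adjusted p = 0.000405), or -4.68 relative to the median gene, and *Msc* was lower in 7 of 7 donors. edgeR gave -2.64 and no call (adjusted p = 0.065), and DESeq2 -2.97 with a call (0.022). MuSC markers fell too, 8 of 8 of them, with a median of -3.07. *Msc* made up 2.11 to 8.90% (median 2.95%) of the marker sum in TA pre-graft and 0 to 3.98% (median 0.193%) in TA grafts. Fewer MuSCs in a sort and less *Msc* RNA per cell cannot be told apart in these bulk values.

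*Tcf15* rose in TA grafts. All 7 held reads, 56 at the lowest, 234 in the median and 365 at the highest, or 35.7, 121 and 188 RPM, and they overlapped TA pre-graft, which reached 75.1 RPM. The change was 3.39 (SE 0.90, 95% interval 1.54 to 5.24, limma adjusted p = 0.00814), 4.48 relative to the median gene, with a rise in 7 of 7 donors. It kept its call with edgeR (2.72, adjusted p = 0.036) and DESeq2 (2.87, 0.0236), and in Experiment 2 alone it was 2.59 without a call (0.055). Of 6 endothelial markers, 5 rose, among them *Cdh5* (3.05, adjusted p = 0.00971), and *Pecam1* (3.10, 0.00975). Their sum ran from 16.6 to 1263 RPM (median 301) before and from 540 to 2818 RPM (median 1729) after grafting. All 6 had reads in both groups. *Tcf15* stood at 0 to 8.43% of that sum in TA pre-graft (median 5.67%) and at 4.85 to 12.6% in TA grafts (median 6.66%). The part of endothelial cells in the rise was not tested.

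*Tcf3* fell in TA grafts, where 9, 24 and 83 reads (4.55, 13.7 and 52.4 RPM) lay in all 7 libraries below the lowest TA pre-graft library (53.6 RPM). The change was -2.18 (SE 0.51, 95% interval -3.22 to -1.13, limma adjusted p = 0.0041), or -1.09 relative to the median gene, and 7 of 7 donors showed it. It lost its call with centring (-1.28, adjusted p = 0.0629), edgeR (-0.94, 0.195) and DESeq2 (-0.82, 0.229). *Tcf12* was at -0.34 (95% interval -1.14 to 0.47), *Bhlhe40* at -0.51 (-1.33 to 0.32) and *Bhlhe41* at -0.48 (-2.12 to 1.15), and none of these 3 passed (adjusted p 0.493, 0.308 and 0.632). All 3 lay above the median gene, by 0.75, 0.58 and 0.60, and with mitochondrial genes left out of the scaling their signs turned, to 0.45, 0.28 and 0.30, again without a call.

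The bases before the start of *Tcf3* (GRCm38.p6, chr10:80433636-80433885, minus strand) are shown beside its fall, and they hold 1 CANNTG, in capitals.
Tcf3: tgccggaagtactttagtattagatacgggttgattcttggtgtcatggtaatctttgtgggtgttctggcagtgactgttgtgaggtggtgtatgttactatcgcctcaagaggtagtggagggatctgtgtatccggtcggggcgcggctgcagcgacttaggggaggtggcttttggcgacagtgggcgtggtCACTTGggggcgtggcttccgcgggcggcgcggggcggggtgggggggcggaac

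The third comparison asks whether these factors change in EOM cells placed in a limb muscle. Of the members, 8 were tested, of which 1 was called higher (*Tcf15*) and 3 lower (*Tcf21*, *Msc*, *Tcf3*), where limma called 3.51% of all genes higher and 55.8% lower. *Tcf21* passed the filter through EOM pre-graft alone, so its call adds nothing to that count. The median gene lay at -1.48. Of all calls 5.93% were higher, against 44.5% with mitochondrial genes left out of the scaling, 57.9% with centring, 70.5% with edgeR and 68.7% with DESeq2. The EOM pre-graft libraries also served in the comparison before grafting, so the values are set side by side and not correlated.

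*Tcf21* was not read in any of the 7 EOM grafts. Pooled over its libraries, EOM pre-graft lay at 22.6 times the level of 3 reads over that group. This ratio leaves out the spread between libraries and the fewer cells of the grafts, so it is not a lower bound. Since it passed the filter through EOM pre-graft, where it is read, the fit describes that difference and is no support for it. The fitted change was -2.64 (SE 0.69, 95% interval -4.08 to -1.20, limma adjusted p = 0.00447), or -1.16 relative to the median gene, and 5 of 6 donors with both libraries fell while the other stood at 0 in both. Centring left -1.39 without a call (adjusted p = 0.21), as did leaving mitochondrial genes out of the scaling (-1.57, 0.136), whereas edgeR (0.0177) and DESeq2 (0.0171) kept the call. In TA grafts 1 of 7 libraries held 1 read. The grafts were made from fewer cells than the 500 of the pre-graft sorts, and the 3 EOM grafts that failed also held no read of *Tcf21*.

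*Msc* fell in EOM grafts without overlap, from 241 to 457 RPM before to 0, 29.3 and 196 RPM (lowest, median and highest) after grafting. The change was -3.94 (SE 0.82, 95% interval -5.64 to -2.24, limma adjusted p = 0.00111), or -2.46 relative to the median gene, and it was seen in 6 of 6 donors. edgeR gave -1.76 (adjusted p = 0.0564) and no call, DESeq2 -1.72 with one (0.018). The highest graft was the 1 of Experiment 1, and within Experiment 2 the change was -4.71 (adjusted p = 0.00197). All 8 MuSC markers fell as well, with a median of -2.24. *Msc* took up to 3.30% of the marker sum before (median 2.33%) and 0 to 1.87% after grafting (median 0.605%).

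*Tcf15* rose in EOM grafts, with 5, 133 and 291 reads (2.36, 90.2 and 152 RPM), and overlapped EOM pre-graft through the lowest grafts. The change was 3.94 (SE 1.01, 95% interval 1.84 to 6.04, limma adjusted p = 0.00391), or 5.42 relative to the median gene, and 5 of 6 donors rose. It kept its call with edgeR (4.87, 0.00347) and DESeq2 (4.98, 4.77e-05). Of the 6 endothelial markers 5 rose here too, with a sum of 97.1 to 503 RPM (median 194) before and 174 to 1956 RPM (median 1583) after grafting. The EOM graft with 2.36 RPM of *Tcf15* was the one with 174 RPM of these markers. *Tcf15* stood at 0 to 5.30% of the endothelial sum in EOM pre-graft (median 1.91%). In EOM grafts it stood at 1.355 to 9.64% (median 7.15%), so the share had a higher median there, with overlap. The part of endothelial cells in the rise in EOM grafts was not tested. Without the graft libraries in which 50% or more of the reads lay on mitochondrial genes, 4 EOM grafts remained. *Tcf15* then lost its call (3.33, limma adjusted p = 0.0544), as did *Tcf3* (-0.69, 0.122), while *Msc* kept its call (-2.61, 0.000664). *Tcf21* was called too (-2.75, 0.0277), but it passed the filter through EOM pre-graft alone, so this is no support. That setting without the mitochondria-rich libraries was chosen after the values were seen.

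**Figure D3:**
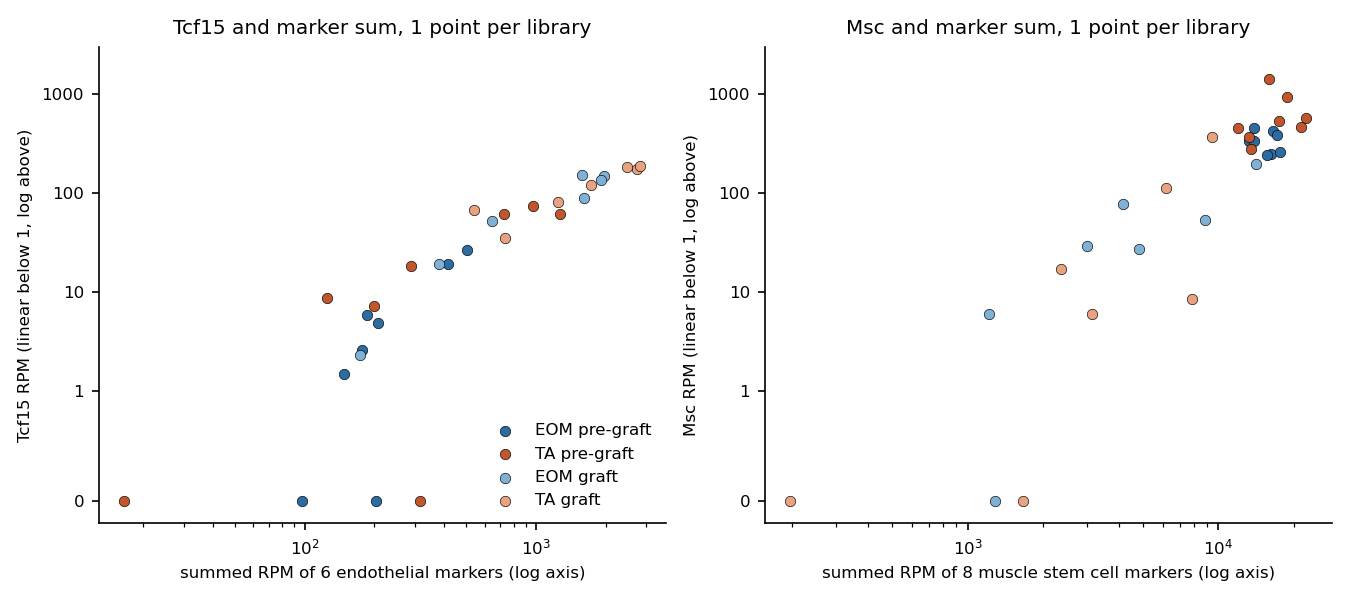
*Tcf15* against the summed RPM of 6 endothelial markers (left) and *Msc* against that of 8 MuSC markers (right), 1 point per library, with the x axis logarithmic and the y axis linear below 1 RPM and logarithmic above. Libraries with under 100 RPM of endothelial markers hold no *Tcf15*, and the libraries with over 1500 RPM of them hold 90.2 to 188 RPM.

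*Tcf3* had 0, 25.4 and 56.9 RPM in EOM grafts, overlapped EOM pre-graft (37.1 to 77.9 RPM), and was called at -1.74 (SE 0.70, limma adjusted p = 0.0368). It lay at -0.26 relative to the median gene, only 4 of 6 donors fell, and DESeq2 put it at 0.10 (adjusted p = 0.925). With the donor as replicate block it was -0.95 without a call (0.184). It was called in 8 of the 15 fits that left out 1 library. The call was lost without the EOM grafts of mice 3 and 5 of Experiment 2 or the EOM pre-graft libraries of mice 3, 4 and 5 of Experiment 1 and mice 4 and 5 of Experiment 2, and without the graft of mouse 3, which had no read of *Tcf3*, the value was -0.95. *Bhlhe41* was at -1.42 (95% interval -2.87 to 0.03, adjusted p = 0.0798), *Bhlhe40* at -0.69 (-1.46 to 0.08, 0.104), *Tcf12* at -0.77 (-1.68 to 0.13, 0.119) and *Twist1* at -0.62 (-2.11 to 0.87, 0.445). None of these 4 was called, and all lay above the median gene. With the failed libraries included *Bhlhe40* (-1.35, adjusted p = 0.0328) and *Bhlhe41* (-2.07, 0.027) were called. The failed EOM pre-graft library of mouse 1 of Experiment 1 held 302 reads on genes and no read of either. Its 0.9 of a read stood at 10.7 log2 RPM, above every passing EOM pre-graft library (up to 7.48 and 5.70). These calls can therefore not be read as a fall. With mitochondrial genes left out of the scaling *Bhlhe40* and *Tcf12* turned to 0.38 and 0.29. *Twist1* had no read in 6 of 7 EOM grafts. Its values, among them 0.44 in that setting, follow the 0.9 of a read set there and show no change. Without the EOM graft of mouse 2 of Experiment 2 or that of mouse 4 of Experiment 1, *Bhlhe41* was called, at -1.76 in the latter case, in which *Tcf12* was also called at -1.04.

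The partners of these factors were counted from lists written for this purpose. Of the 4 myogenic factors, all tested before grafting, 1 was called higher in TA and 0 lower, with a median of 1.04. That was *Myod1* (2.03, limma adjusted p = 9.83e-06), and it stood at a median of 241 RPM in EOM and 1049 RPM in TA. After grafting 3 of 4 fell in TA, *Myf5* (-3.06, adjusted p = 0.00246), *Myod1* (-2.42, 0.00266) and *Myog* (-3.72, 0.0152), and 2 of 4 fell in EOM, *Myf6* (-3.07, 0.000794) and *Myf5* (-2.72, 0.00104), with 0 rising in either. Of all genes 30.9% were called lower in TA grafts and 55.8% in EOM grafts, against which this and the following counts are to be read. Of the Id and E protein list, 3 of 5 fell in TA grafts (*Id3* -1.69, *Id2* -1.31, *Id4* -2.54) and 1 of 5 in EOM grafts (*Id3*, -1.29), with medians of -1.31 and -0.92.

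Of 6 Notch effector bHLH genes, 5 were tested in each graft comparison. In TA grafts 2 fell and 0 rose, *Heyl* (-2.57, limma adjusted p = 0.000275) and *Hes6* (-3.24, 0.0142). In EOM grafts 4 fell and 0 rose, *Heyl* (-2.62, 4.92e-05), *Hes6* (-4.16, 0.00141), *Hey1* (-2.21, 0.0125) and *Hey2* (-2.52, 0.0312). Of all genes 30.9% and 55.8% were called lower in these comparisons, and the medians of the list (-2.22 and -2.52) stood beside -1.09 and -1.48 over all genes. Of the 14 clock genes, 6 fell in TA grafts and 8 in EOM grafts, with 0 rising and medians of -1.32 and -1.56 near those of all genes. *Nr1d1* fell in both, by 1.59 in TA grafts (0.00502) and by 2.44 in EOM grafts (0.00223). Before grafting 0 of 5 Notch effectors tested were called.

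Of 9 competitors and partners at E-boxes, 0 were called before grafting. In TA grafts 8 were tested, 1 rose and 4 fell, and in EOM grafts 9 were tested, 1 rose and 3 fell, where 30.9% and 55.8% of all genes were called lower. The medians of the list were -1.02 and -0.90, beside -1.09 and -1.48 over all genes. The gene that rose in both was *Mef2c*, a partner of the myogenic factors that endothelial cells express as well (3.57 in TA grafts, limma adjusted p = 0.00617, and 4.38 in EOM grafts, 0.00264), and *Zeb2* fell in both (-1.28, 0.0183, and -1.83, 0.000829). Of 6 head mesoderm regulators, 2 were tested before grafting. In TA 1 was called higher and 1 lower, where limma called 1.26% of all genes higher and 3.31% lower. The one called higher was *Tbx1*, known for jaw and pharyngeal muscle (5.92, limma adjusted p = 4.31e-07). *Tcf21*, another head muscle factor, had reads before grafting in EOM alone. Of 9 other mesodermal bHLH genes, 2 were tested before grafting with 0 called, and *Scx*, a tendon factor, fell in EOM grafts (-2.29, adjusted p = 0.0397).

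**Figure D4:**
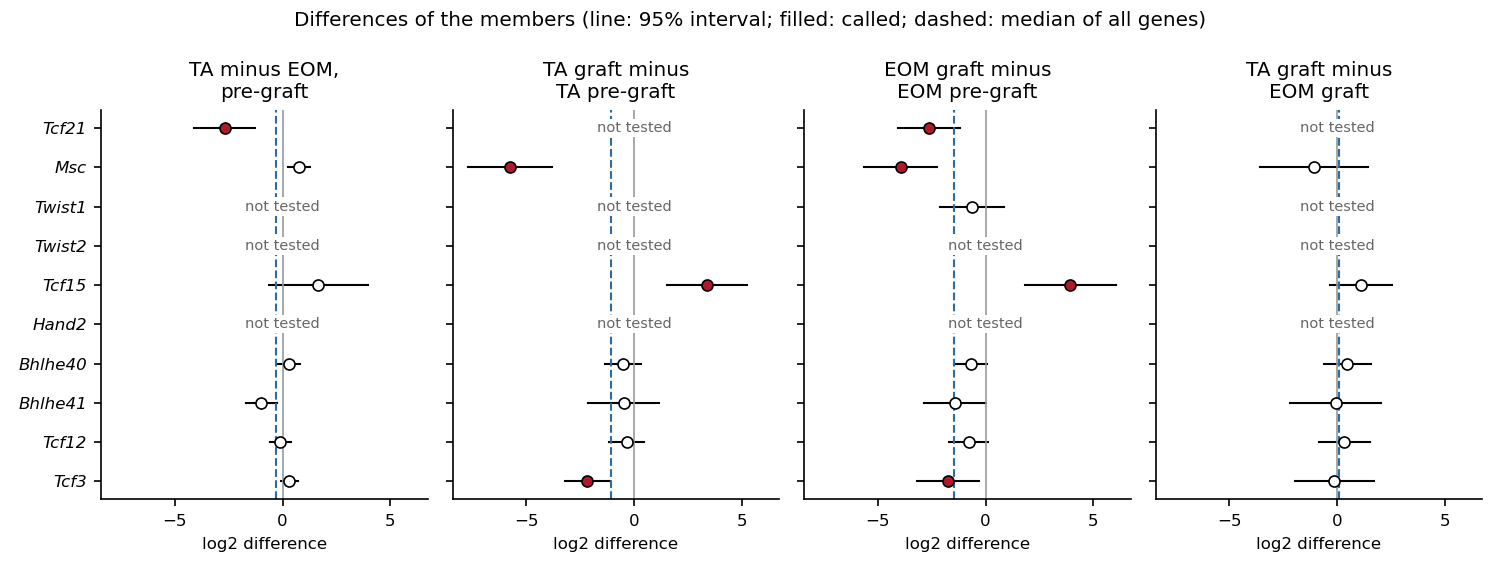
log2 differences (x axis) of the members (y axis) in 4 comparisons from limma, with 95% intervals as lines. Filled points were called, the dashed line is the median of all genes tested, and members outside the filter are marked as not tested. *Msc* and *Tcf15* lie farthest from the median gene in both graft comparisons.

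Lastly, TA and EOM grafts were compared, both taken from TA hosts. Of the members 6 were tested and 0 were called, where limma called 0% of all genes higher and 0% lower, with 452 genes and 0 members at an unadjusted p under 0.05. edgeR also called 0 genes, and DESeq2 called 2 higher and 1 lower, none of them a member. The intervals were wide. That of *Msc* ran from -3.56 to 1.43, of *Tcf15* from -0.32 to 2.54, of *Bhlhe41* from -2.16 to 2.05 and of *Tcf3* from -1.97 to 1.73. The difference between the graft change of EOM and that of TA was tested in 8 members with 0 calls, where limma called 0.0554% of all genes higher and 0.152% lower. For *Tcf21* it was -2.62 (unadjusted p = 0.00176, adjusted p = 0.26), and it was the 1 member at an unadjusted p under 0.05. *Tcf21* passed the filter through EOM pre-graft alone. In TA it had 0 reads before and 1 read after grafting, so it could not fall there. Its value restates the reads of EOM pre-graft and is no support for a different response. The other members were farther from a call. For *Msc* it was 1.83 (95% interval -0.97 to 4.62, adjusted p = 0.825) and for *Tcf15* 0.55 (-2.36 to 3.46, 0.957). So no member was shown to respond differently to grafting in the 2 muscles, and the intervals do not show that they responded alike.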

How the data were processed

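RNA of MuSCs was made into libraries by the G&T method and sequenced as paired ends. The authors trimmed reads with Trim Galore 0.4.4, aligned them to GRCm38 with HISAT2 2.1.0 and computed log2 RPM in Seqmonk. The deposited table holds these log2 values, and the deposited quality tables give total read counts per library and the percent that lay in genes, exons and mitochondrial DNA. The settings of the counting and the annotation release are not given in the sources used here. The base of the RPM is 19.3 to 22.7% of the total reads deposited by the authors. Reads were recovered from the log2 values (100% whole within 0.05 of a read), and 0 sample columns were left unused.

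Groups came from the labels. limma 3.58.1 (R 4.3.3) with a trend, keeping genes over log2 RPM 1 in 4 or more compared libraries, was fitted for 5 comparisons over all genes with Benjamini-Hochberg adjustment. The deposited values were compared also as log2 of RPM plus 1, without or with a stricter filter (above 2 in at least 7), with donor block, experiment, all libraries, 1 common fit, other scalings, edgeR 4.0.16 and DESeq2 1.42.0. The scripts were tested on simulated data. Same-numbered samples of an experiment come from the same donor mouse by the labels, and their deviations correlated weakly (median r = 0.054 over 7 pairs before grafting, at most 0.048 elsewhere). The replicates are separate donors, and each graft its own TA. The 40 bisulfite samples were not analysed here. All 10 members are named, with up to 4 called genes per list, or at most 2 where none is called, and the 3 genes most like *Tcf21* and *Msc*. Some results under these rules are not reported here. Members and lists were chosen with earlier results of these data known. Exon lengths are from GENCODE vM21 and promoters from RefSeq, which gave 7 of the members.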

Additional observations from a re-analysis of the deposited data

Results flagged for a closer look

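In 5 cases 1 library stood apart from the rest of its group of 7 grafts, by the gap to its neighbour over the range of the group. *Twist1* was highest in the EOM graft of mouse 1 of Experiment 2 (log2 RPM 2.39, 6 reads) and in the TA graft of mouse 5 of Experiment 2 (1.67, 5 reads), where the other libraries held no read. *Twist2* was highest in the EOM graft of mouse 4 of Experiment 1 (2.72, 14 reads), again beside libraries without a read. *Bhlhe41* and *Tcf3* were both lowest in the EOM graft of mouse 3 of Experiment 2 (-0.71 each, no read), where the others lay from 3.58 to 5.60 and from 3.47 to 5.83. Chance flags about 1 in 20 groups, and 32 groups were looked at. No cause was tested.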

How the results depend on the processing

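Before grafting 1 member was called. The count was 0 under the stricter filter (where *Tcf21* was not tested), under the donor replicate block and when failed libraries were included, and 2 with centring, edgeR and DESeq2, which added *Msc*. In TA grafts 3 members were called, and 1 with edgeR (*Tcf15*). *Tcf3* also lost its call there with centring and with DESeq2, and *Tcf15* in Experiment 2 alone. In EOM grafts 4 were called. The count was 2 with mitochondrial genes left out of the scaling, with centring, with edgeR and without libraries over the mitochondrial limit. That last setting was chosen after seeing the data. With failed libraries included 6 were called, which added *Bhlhe40* and *Bhlhe41*. There a failed EOM pre-graft library with 302 reads on genes set its zeros at 10.7 log2 RPM. Counts that include it, also the 0 before grafting, therefore say little. *Tcf3* in EOM grafts turned to 0.10 with DESeq2. Leaving out 1 library gave 1 to 1 calls before grafting, 3 to 3 in TA grafts, 3 to 6 in EOM grafts and 0 to 0 after grafting. *Tcf21* was the 1 call before grafting each time, and it was called each time in EOM grafts. It passed the filter through EOM pre-graft alone, so these kept calls are no support. Other causes of the shifts in the counts were not tested. The replicate block changed the calls of *Tcf21* before grafting (-2.42) and *Tcf3* in EOM grafts (-0.95) and no other member's call. For genes with few reads, such as *Tcf21* and *Twist1*, depth limits what can be seen.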

Other observations

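In the 10 failed libraries, which entered no comparison above unless stated, *Tcf21* had no read. *Twist1* had 12 and 22 reads in the failed EOM grafts of mice 3 and 5 of Experiment 1, more than in any passing library. *Tcf15* had 309 reads and *Msc* 145 in the failed EOM pre-graft library of mouse 3 of Experiment 2, where the passing EOM pre-graft libraries held at most 41 and at least 404.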
